A study of Mus musculus with 9 samples.

Results

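The 10 genes described here encode carriers that move bile acids and other organic anions through the mouse hepatocyte. They were taken as a list of names and found by symbol in both deposited tables, and all 10 were present among the 16521 genes measured. The sinusoidal uptake class held 4 genes, Slc10a1, Slco1a1, Slco1a4 and Slco1b2. The canalicular export class held 3 genes, Abcb11, Abcb4 and Abcc2, and the basolateral export class held 3 genes, Abcc3, Abcc4 and Slc51b.

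A hepatocyte takes bile acids and other anions from sinusoidal blood through carriers of the SLC10 and SLCO families and secretes them across its canalicular membrane through ATP-driven ABC pumps. A further set of exporters in the basolateral membrane returns these compounds to the blood, and in cholestasis this route is known to gain weight while uptake is lowered. The nuclear receptor FXR, encoded by Nr1h4, senses bile acids and is known to drive the export pump gene Abcb11 and the repressor gene Nr0b2.

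Liver RNA of 9 samples from C57BL/6 mice was sequenced, in 3 groups of 3 to which mice had been assigned at random. The first group, called SAR, was fed a methionine and choline deficient (MCD) diet and treated with a high dose of sarsasapogenin, a plant steroidal sapogenin. The labels leave the amount unstated. The second group, called model, was fed the MCD diet, a common way to produce fatty liver with inflammation in rodents that, unlike obesity models, makes the animals lose weight. The third group, called normal, was given saline, and its samples carry wild type in their titles. The labels give no age or sex. They also do not tie samples to individual mice, so a p-value here covers the spread among libraries of a group, part or all of which could be technical.

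The deposited files hold group means, from which whole reads per library were solved. Within a group the library with the largest size factor is called a, the next b and the one with the smallest c, and these letters do not pair libraries across groups. Recovered reads numbered 6361534 to 6883280 per library in SAR, 9048285 to 10802657 in model and 7271419 to 8368332 in normal livers. Levels are normalised reads, meaning reads divided by the size factor of the library on 1 scale over the 9 libraries. Library c of the model group correlated with the other libraries of its group at r = 0.928 and 0.941, whereas those libraries correlated with each other at 0.980 (log2 values across 12294 genes). Library c of the normal group likewise stood at 0.934 and 0.925 against 0.977, and the SAR libraries lay between 0.962 and 0.970. The counts of called genes and the values that turn on these 2 libraries are therefore also given without them.

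The hepatocyte identity of the tissue was checked with 19 hepatocyte markers such as Alb and Ttr, all of which were in the tables. Most of them were too abundant to be split between libraries. For SAR against model the authors' deposited table had 14 of the 19 higher and none lower at an adjusted p under 0.05, with a median fold of 1.79. In their table of model against normal 11 were lower and none higher, with a median fold of 0.520. The share of all genes called by the authors' test was not counted here, so these marker counts are not set against it. In such bulk tissue, fewer cells of a type and less RNA per cell cannot be told apart, which holds for every result below. Of 7 markers of kidney proximal tubule 2 were recovered, and their summed level was at most 6.72 normalised reads in any library. Of 7 small intestine markers Fabp2, Vil1, Slc10a2, Lct and Apoa4 were recovered. The marker Sis was matched through an older symbol to another gene, Pdgfb, which had 9.92 to 165 normalised reads. With Pdgfb included, the summed level was 2632 to 3108 in SAR, 5615 to 8351 in model and 3200 to 7477 in normal livers. Most of it came from Fabp2 and Apoa4, which mouse liver is also known to express.

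The plot of members by library shows the 4 uptake carriers at their lowest in the model livers, whereas Abcc4 and Slc51b were at their highest there. Among all 10 genes Slc10a1 had the highest level per kilobase of exon in each group, at 3452 ± 812 normalised reads per kilobase in SAR, 896 ± 838 in model and 3812 ± 212 in normal livers (SD, n = 3 each). Slco1b2 came next in each group, at 1914 ± 478 in SAR, 649 ± 515 in model and 2274 ± 573 in normal livers. The gap between both genes was larger than either SD in SAR and normal livers, and smaller than either SD in model livers. Abcb11, Abcb4, Abcc2 and Abcc3 had means between 586 and 809 per kilobase in SAR, between 270 and 477 in model and between 485 and 733 in normal livers. In each group, neighbours among these 4 in the order of levels differed by less than the larger of their SDs. Abcc4 and Slc51b were at the low end, with 5.56 and 0 per kilobase in SAR, 12.8 and 10.2 in model, and 5.10 and 0 in normal livers. Slco1a1 had 474 ± 80.9 per kilobase in SAR, 9.27 ± 5.18 in model, the lowest of the 10 there, and 510 ± 442 in normal livers. In normal livers its mean stood above that of Abcb11.

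**Figure D1:**
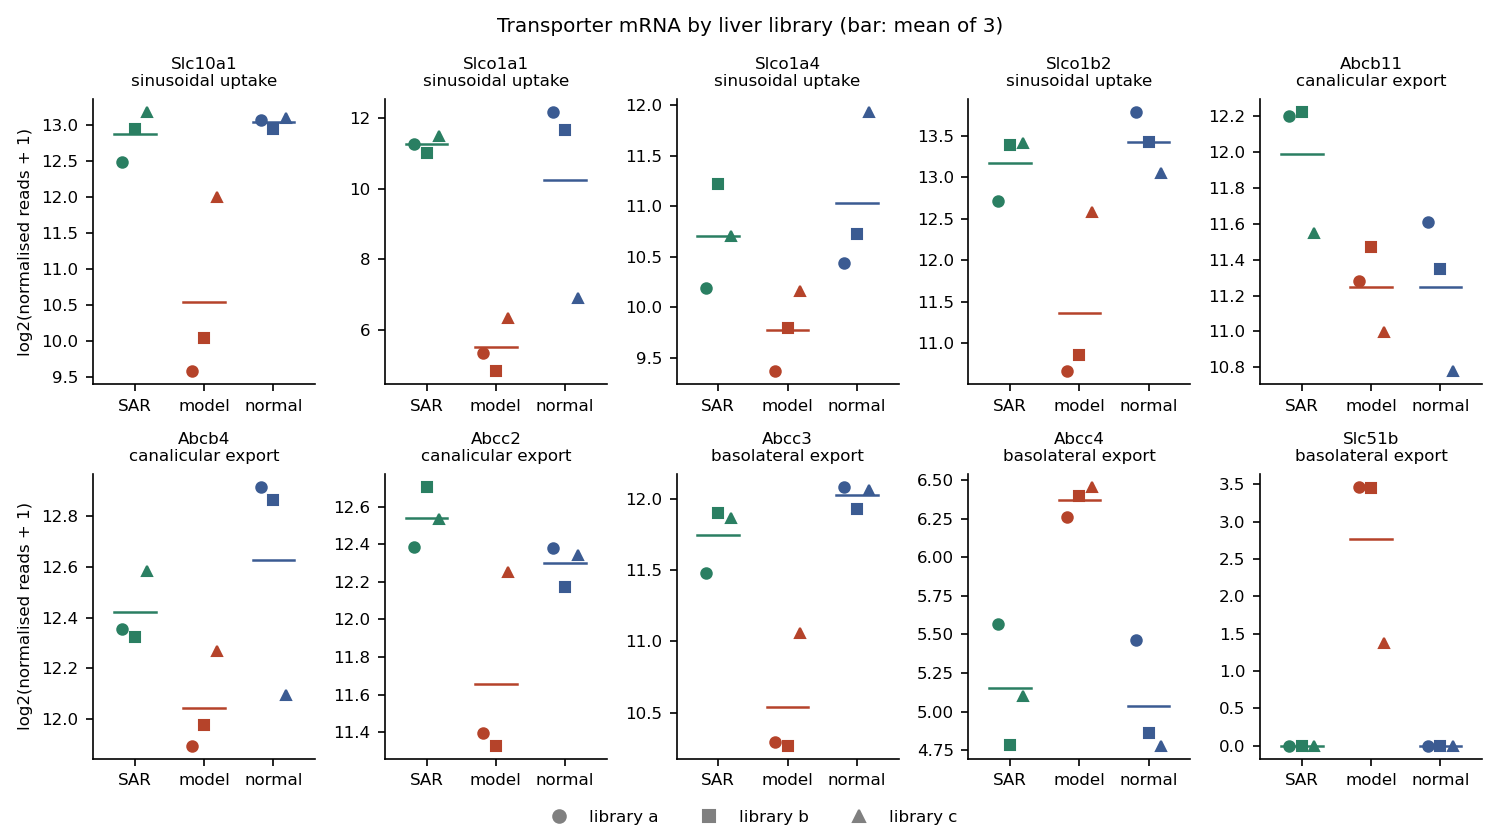
Each point is 1 liver library, on a log2(normalised reads + 1) axis whose range differs between panels, with SAR, model and normal from left to right and a bar at the mean of the 3 log2 values. The 4 uptake carriers and Abcc3 were lowest in model libraries, Abcc4 was highest there, and Slc51b had reads in model libraries only.

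Slc10a1 encodes NTCP, the sodium-dependent carrier that takes up most conjugated bile acids. It had 5702, 7824 and 9250 normalised reads in the SAR livers a, b and c, 764, 1055 and 4093 in the model livers, and 8564, 7854 and 8730 in the normal livers. Every model library lay below every library of the other groups, and model library c stood nearest to them. SAR against model gave 2.34 as log2 fold change (SE 0.54, limma adjusted p = 0.0136), and model against normal gave -2.49 (SE 0.56, limma adjusted p = 0.0124). Without model library c these were 3.07 (limma adjusted p = 2.68e-05) and -3.22 (limma adjusted p = 3.64e-04). Without model library b the calls were lost, with limma adjusted p = 0.0578 and 0.0540 at log2 fold changes of 2.10 and -2.24. The call for SAR against model was also lost without SAR library b or c, at limma adjusted p = 0.0549 and 0.0517.

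Slco1b2 encodes OATP1B2, the main mouse counterpart of the human OATP1B carriers for unconjugated bile acids, bilirubin and drugs. Its levels were 6715, 10687 and 10903 normalised reads in SAR, 1620, 1852 and 6129 in model and 14119, 11022 and 8478 in normal livers. The model libraries again lay below all others, with library c closest. On the log2 scale the difference was 1.82 for SAR against model (SE 0.47, limma adjusted p = 0.0209) and -2.06 for model against normal (SE 0.50, limma adjusted p = 0.0165). Without model library c the values were 2.43 and -2.67. The first call was lost without SAR library b or c, and both without model library a or b. The second was lost without normal library a too. The limma adjusted p then lay between 0.0733 and 0.0877 for SAR against model and between 0.0604 and 0.0714 for model against normal.

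Slco1a1 encodes OATP1A1, a carrier of bile acids, steroid sulfates and drugs that is known to be more abundant in male than in female mouse liver. It had 2495, 2076 and 2930 normalised reads in SAR livers and 39.6, 27.5 and 79.7 in model livers. The normal livers had 4666, 3286 and 119, so library c of that group stood far below the other two, yet above every model library. In log2 terms SAR livers exceeded model livers by 5.79 (SE 0.33, limma adjusted p = 5.29e-05), a 55.4-fold difference, and this call held without each library in turn. Model against normal gave -4.76 (SE 1.26, limma adjusted p = 0.0217). Without normal library c it was -6.44 (limma adjusted p = 1.92e-04), and without model library a or b, or normal library a or b, the limma adjusted p lay between 0.0684 and 0.0769 and the call was lost.

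The low Slco1a1 of normal library c stood beside other values that set this library apart. The summed level of 15 recovered male-biased liver genes, mostly major urinary proteins and sex-dependent cytochrome P450 genes, was 54309 to 68686 normalised reads in SAR and 6693 to 8689 in model livers. In normal livers it was 97839 and 96777 in libraries a and b and 32608 in library c. Most of the sum in normal library c came from Egfr, Cyp2d9 and C8a, at 10486, 10142 and 9444. The mean log2(normalised reads + 1) of the 15 genes was 11.8, 11.6 and 6.87 in normal libraries a, b and c. It was 10.4 to 11.1 in SAR and 5.56 to 5.87 in model livers. Of 16 such genes tested in each comparison, 15 were higher and none lower in SAR than in model livers, where 13.2% of all genes were higher, and 11 were lower and none higher in model than in normal livers, where 19.0% were lower, with median log2 fold changes of 5.26 and -3.91. The sum of 8 recovered acute phase genes was 125265 in that library against 10865 and 12178 in the other normal libraries, and the sum of 14 neutrophil markers was 8503 against 125 and 277. The sum of 16 recovered female-biased liver genes was 2101, 3072 and 7895 in normal libraries a, b and c. In model libraries a, b and c it was 1077, 1431 and 7878, so model library c stood apart in this sum too. The SAR libraries had 1389 to 2449. The part of these lists in the Slco1a1 values was not tested.

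Slco1a4 encodes OATP1A4, a related carrier with a female bias in mouse liver and a high affinity for digoxin. Its levels were 1168, 2392 and 1669 normalised reads in SAR, 659, 889 and 1145 in model and 1386, 1687 and 3918 in normal livers. The model and SAR libraries came close without overlapping, at 1145 and 1168. Log2 fold changes were 0.95 for SAR against model (SE 0.29, limma adjusted p = 0.0354) and -1.26 for model against normal (SE 0.39, limma adjusted p = 0.0372). These were the smallest changes of the 4 uptake carriers, and neither was called in the authors' deposited table, which gave adjusted p of 0.111 and 0.199. For SAR against model the call was lost when SAR library b or c was left out, and when model library a or b was, with limma adjusted p between 0.0942 and 0.125, and with all 3 groups in 1 fit (limma adjusted p = 0.0939). For model against normal it was lost without model library a or b or normal library b, with limma adjusted p between 0.0577 and 0.130.

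Slco1a1 and Slco1a4 are neighbouring genes of similar sequence, but 50-base stretches shared with other genes made up only 1.64% and 1.61% of their transcripts. The ratio of Slco1a1 to Slco1a4 reads was 2.14, 0.868 and 1.75 in SAR livers and 0.0601, 0.0309 and 0.0696 in model livers. It was 3.37 and 1.95 in normal libraries a and b and 0.0304 in normal library c, just under the lowest model library. In that library Slco1a4 was at its highest of all 9 libraries, so the low Slco1a1 was not shared by its neighbour.

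The canalicular pumps showed smaller differences. Abcb11 encodes BSEP, the pump that drives bile acids into bile. It had 4709, 4782 and 2993 normalised reads in SAR, 2488, 2841 and 2042 in model and 3124, 2607 and 1756 in normal livers. The SAR libraries lay above every model library, whereas model and normal libraries overlapped. The log2 fold change was 0.76 for SAR against model (SE 0.24, limma adjusted p = 0.0411) and 0.00 for model against normal (SE 0.25, 95% CI -0.57 to 0.58, limma adjusted p = 0.995). The SAR call was lost when SAR library a or b was left out, and when model library a or b was, at limma adjusted p between 0.0780 and 0.148. It was also lost with all 3 groups in 1 fit (limma adjusted p = 0.0545) and with no filter on low values (limma adjusted p = 0.0506).

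Abcb4 encodes MDR2, the flippase that supplies phosphatidylcholine to bile. Its levels were 5236, 5123 and 6139 normalised reads in SAR, 3806, 4024 and 4925 in model and 7727, 7443 and 4379 in normal livers. All SAR libraries lay above all model libraries, and normal library c fell within the model range. Log2 fold changes came to 0.40 for SAR against model (95% CI -0.06 to 0.86, limma adjusted p = 0.169) and -0.58 for model against normal (95% CI -1.22 to 0.06, limma adjusted p = 0.128). Abcb4 was called lower in model than in normal livers without normal library c (-0.85, limma adjusted p = 0.0270). It was called higher in SAR than in model livers without model library c (0.50, limma adjusted p = 0.0476).

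Abcc2 encodes MRP2, the pump for conjugated bilirubin, glutathione conjugates and other organic anions. It had 5350, 6687 and 5929 normalised reads in SAR, 2696, 2568 and 4877 in model and 5333, 4614 and 5202 in normal livers. Model library c lay inside the normal range, and model libraries a and b far below it. SAR against model livers differed by 0.90 on the log2 scale (SE 0.27, limma adjusted p = 0.0357). For model against normal it was -0.64 (95% CI -1.28 to -0.00, limma adjusted p = 0.0988), and without model library c it was -0.94 (limma adjusted p = 0.00385). The SAR call held without model library c and was lost without any 1 of the other 5 libraries, with limma adjusted p between 0.0566 and 0.157.

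The basolateral exporters did not move as a class. Abcc3 encodes MRP3, which returns glucuronide conjugates and bile acids to blood. It had 2849, 3820 and 3733 normalised reads in SAR, 1256, 1230 and 2128 in model and 4350, 3904 and 4275 in normal livers. The model libraries lay below all others and the SAR libraries lay below all normal ones. Its log2 fold change was 1.23 for SAR against model (SE 0.24, limma adjusted p = 0.00784) and -1.49 for model against normal (SE 0.24, limma adjusted p = 0.00407). Both calls held without each library in turn, with limma adjusted p of at most 0.0431 and 0.0254.

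Abcc4 encodes MRP4, which exports bile acids together with glutathione, and cyclic nucleotides. It moved the other way, with 46.5, 26.6 and 33.3 normalised reads in SAR, 75.6, 83.2 and 86.9 in model and 43.2, 28.1 and 26.5 in normal livers. The model libraries were close to each other and above all others, and the level was low throughout. The log2 fold change was -1.20 for SAR against model (SE 0.28, limma adjusted p = 0.0146) and 1.34 for model against normal (SE 0.28, limma adjusted p = 0.00945). The second call held without each library in turn, whereas the first was lost without SAR library b (-1.02, limma adjusted p = 0.0517) or model library b (-1.18, limma adjusted p = 0.0628). For 1 read of Abcc4 there were 61.2, 143 and 112 of Abcc3 in the SAR libraries, 16.6, 14.8 and 24.5 in the model libraries and 101, 139 and 162 in the normal libraries.

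Slc51b encodes the beta subunit of the heteromeric exporter OST, which works only together with the alpha subunit encoded by Slc51a. In SAR livers Slc51b had no reads in any library, in model livers 14, 13 and 2 reads, and in normal livers again none. The groups did not overlap, but the mean lay under the filter of 10 normalised reads, so the gene was not in the main test. Against a floor of 3 reads over the group, the mean model level was 5.79-fold that of SAR and 6.88-fold that of normal livers. The floor covers only the groups without reads and not the spread of the model reads. Without 1 model library these values ran between 4.65 and 8.05 against SAR and between 5.51 and 9.56 against normal. The authors' deposited table gave an adjusted p of 0.0597 for SAR against model and 0.0386 for model against normal. With no filter on low values limma called both, at adjusted p = 0.0168 and 0.0147. Slc51a had no reads in SAR livers, 1, 0 and 3 in model livers and 0, 0 and 1 in normal livers, too few for a comparison.

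Slc51b is also known to be expressed in bile duct epithelium. The summed level of 17 cholangiocyte markers, such as Krt19 and Epcam, was 3143, 2272 and 1994 normalised reads in SAR, 11909, 13275 and 3445 in model and 1449, 1783 and 1869 in normal livers. Most of the model sums came from 1 gene of the list, Spp1, at 8389, 9532 and 1770. Model library c, with 2 reads of Slc51b, had the lowest sum of its group. Krt19, a defining marker, was detected in all 9 libraries, at 12.8 to 21.8 normalised reads in SAR, 27.9 to 183 in model and 5.51 to 20.5 in normal livers. Of these markers 8 of 16 tested were lower and none higher in SAR than in model livers, where 16.1% of all genes were lower. In model against normal livers 12 of 16 were higher and 1 lower, where 19.9% of all genes were higher, with median log2 fold changes of -2.34 and 2.23. The sum of 15 macrophage markers was 6327 to 9654 in SAR, 18580 to 20725 in model and 7293 to 10928 in normal livers, again highest in the model group. Of these 15, 10 were lower and none higher in SAR than in model livers. In model against normal livers 9 were higher and 3 lower, where 19.9% and 19.0% of all genes were. The marker Clec4f went against the sum, with 685, 772 and 1012 normalised reads in model and 1839, 1671 and 1800 in normal livers. The part of the cholangiocyte and macrophage markers in the levels of Slc51b and Abcc4 was not tested.

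Set side by side, SAR against model livers gave 7 of the 9 tested transporters higher and 1 lower. Over all 12470 genes tested in that comparison 13.2% were higher and 16.1% lower, 29.3% in all. The 7 were the 4 uptake carriers, Abcb11, Abcc2 and Abcc3, the 1 lower was Abcc4, and Abcb4 was not called. The groups did not overlap for any of the 9, with all SAR libraries higher for 8 and lower for 1, where 22.0% and 23.3% of all genes, together 45.3%, did not overlap. Median log2 fold changes were 2.08 for the 4 uptake carriers, 0.76 for the 3 canalicular pumps and 0.02 for the 2 basolateral exporters tested, against 0.01 for all genes. The number called higher was 5 without SAR library a, 2 without SAR library b, 3 without SAR library c, 3 without model library a, 2 without model library b and 8, Abcb4 included, without model library c. The share of all genes called higher was then 11.6%, 5.21%, 6.48%, 5.93%, 5.10% and 20.4%, in the same order. With all 3 groups in 1 fit 5 members were called higher, where 13.7% of all genes were. The lower call was lost without SAR library b or model library b.

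Model against normal livers gave 5 of the 9 lower and 1 higher. Over all 12568 genes tested 19.0% were lower and 19.9% higher, 39.0% in all. The 5 were the 4 uptake carriers and Abcc3, the 1 higher was Abcc4, and none of the 3 canalicular pumps was called. For the same 6 genes the groups did not overlap, with 5 lower and 1 higher, where 26.5% and 27.3% of all genes, together 53.8%, did not overlap. Median log2 fold changes were -2.27 for the uptake carriers, -0.58 for the canalicular pumps and -0.08 for the 2 basolateral exporters, against 0.03 for all genes. The number called lower was 2 without model library a, 1 without model library b, 3 without normal library a or b, and 6 without model library c or normal library c. Without both of these c libraries it was 7, where 28.1% of all genes were lower, with Abcb4 at -0.96 and Abcc2 at -0.92 among them (limma adjusted p = 3.16e-04 and 2.63e-04).

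**Figure D2:**
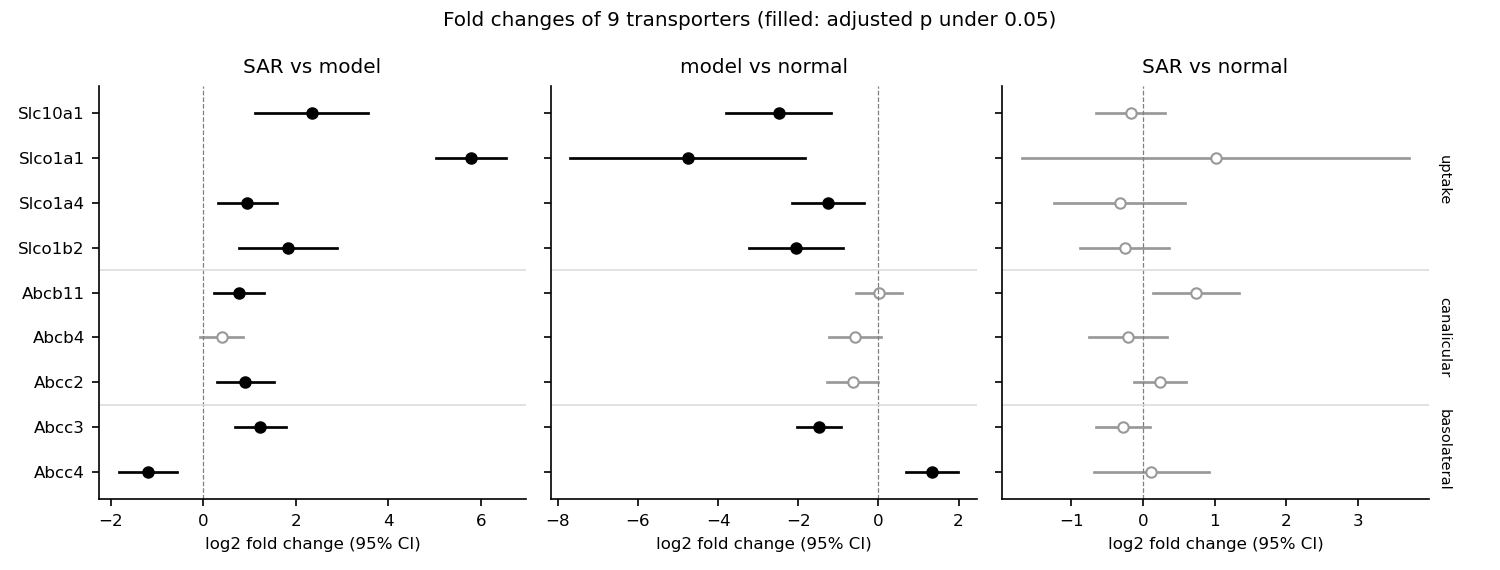
Log2 fold changes with 95% confidence intervals of the 9 tested transporters, with uptake, canalicular and basolateral genes from top to bottom and 1 panel per comparison with its own axis range. Filled points passed a limma adjusted p of 0.05: 8 of 9 for SAR against model, 6 of 9 for model against normal and 0 of 9 for SAR against normal.

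SAR against normal livers gave 0 of the 9 called in either direction, where 1.71% of 11607 genes were called higher and 1.82% lower, 3.53% in all. At an unadjusted p under 0.05 there was 1, Abcb11, at 0.75 on the log2 scale (SE 0.26, 95% CI 0.15 to 1.34, limma adjusted p = 0.122). Limma with voom weights also called none. All SAR libraries lay below all normal libraries for 1 gene, Abcc3, at -0.28 on the log2 scale (95% CI -0.65 to 0.10, limma adjusted p = 0.307), where 17.3% of all genes lay lower without overlap, 15.9% higher, and 33.2% in all did not overlap. A difference was not shown, which does not make the levels alike. The intervals were narrow for Slc10a1 (-0.17, 95% CI -0.65 to 0.31), Abcc2 (0.24, 95% CI -0.12 to 0.61) and Abcb4 (-0.20, 95% CI -0.75 to 0.34). They were wide for Slco1a4 (-0.32, 95% CI -1.24 to 0.59), Abcc4 (0.12, 95% CI -0.69 to 0.92) and above all Slco1a1 (1.01, 95% CI -1.69 to 3.72). Without normal library c the value of Slco1a1 was -0.66 (limma adjusted p = 0.0636), and that of Slco1a4 was 0.13 (limma adjusted p = 0.780). SAR against model and model against normal share the model libraries, so their opposite signs are not independent of each other.

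Within a library, the balance between uptake and canalicular carriers does not depend on the size factor, apart from the added 1. The mean log2 level of the 4 uptake carriers minus that of the 3 canalicular pumps was -0.65, -0.28 and -0.02 in SAR, -2.79, -2.71 and -1.57 in model and 0.07, 0.07 and -0.49 in normal livers. All model libraries lay below all libraries of the other groups, whose ranges overlapped. Without Slco1a1 the difference was -0.52, 0.10 and 0.21 in SAR, -1.66, -1.36 and -0.26 in model and 0.13, 0.24 and 0.95 in normal livers, so that model library c lay inside the SAR range. The ratio of Slc10a1 to Abcb11 reads was 1.21, 1.64 and 3.09 in SAR, 0.307, 0.371 and 2.005 in model and 2.74, 3.01 and 4.97 in normal livers. Model libraries a and b were the 2 with fewer Slc10a1 than Abcb11 reads.

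**Figure D3:**
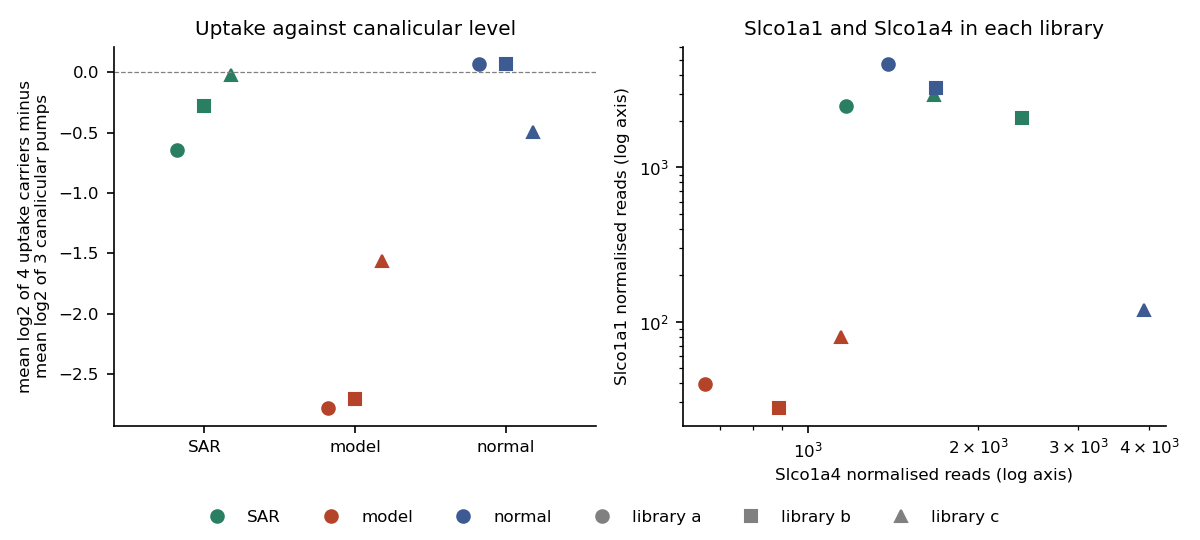
Left, mean log2(normalised reads + 1) of the 4 uptake carriers minus that of the 3 canalicular pumps in each library, with SAR, model and normal from left to right. Right, Slco1a1 against Slco1a4 normalised reads on log axes, where normal library c (triangle) had the highest Slco1a4 and a Slco1a1 level of 119 near the model libraries.

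Promoter sequences were set beside these patterns, since the uptake carriers moved together and Abcc4 moved the other way. RefSeq's table for GRCm38.p6 held windows of 250 bases before to 50 bases after the start of 9 of the 10 genes, and Abcc3 had none. Those of the most abundant uptake carriers, of the member with the largest change, of the bile acid pump and of Abcc4 are given 5′ to 3′ on the strand of the gene. Slc10a1 and Abcc4 each had 2 windows in the table, and the more upstream one is given. Capitals mark matches to 3 motifs searched on both strands, which were chosen after the sequences had been seen. The motifs were the STAT site TTCNNNGAA, a loose inverted repeat of the FXR type made of GGNCA and TGANC with 1 base between them, and the antioxidant response core TGACNNNGC.
Slc10a1, chr12:80968656-80968955, minus strand: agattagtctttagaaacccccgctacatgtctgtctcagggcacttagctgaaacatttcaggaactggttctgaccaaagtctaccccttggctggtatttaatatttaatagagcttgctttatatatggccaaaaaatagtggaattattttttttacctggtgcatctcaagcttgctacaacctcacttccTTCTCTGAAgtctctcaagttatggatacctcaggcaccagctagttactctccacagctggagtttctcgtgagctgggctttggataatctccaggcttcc
Slco1b2, chr6:141629268-141629567, plus strand: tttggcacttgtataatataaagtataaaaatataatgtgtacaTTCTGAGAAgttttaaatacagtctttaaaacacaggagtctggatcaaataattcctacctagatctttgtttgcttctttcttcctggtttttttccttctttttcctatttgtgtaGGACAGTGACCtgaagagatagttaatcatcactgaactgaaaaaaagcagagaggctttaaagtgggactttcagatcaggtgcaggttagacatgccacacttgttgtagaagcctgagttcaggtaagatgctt
Slco1a1, chr6:141946913-141947212, minus strand: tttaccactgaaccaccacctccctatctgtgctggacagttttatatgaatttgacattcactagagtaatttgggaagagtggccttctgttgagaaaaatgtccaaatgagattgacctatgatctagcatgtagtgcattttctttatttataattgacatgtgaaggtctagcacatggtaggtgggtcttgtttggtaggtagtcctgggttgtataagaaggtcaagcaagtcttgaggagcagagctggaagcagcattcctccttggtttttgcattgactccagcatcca
Abcb11, chr2:69342567-69342866, minus strand: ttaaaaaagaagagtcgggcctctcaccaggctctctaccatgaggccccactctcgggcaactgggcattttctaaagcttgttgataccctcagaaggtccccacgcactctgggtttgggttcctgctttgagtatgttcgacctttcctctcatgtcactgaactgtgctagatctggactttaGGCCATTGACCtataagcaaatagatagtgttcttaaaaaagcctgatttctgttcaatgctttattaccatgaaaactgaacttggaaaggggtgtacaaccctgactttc
Abcc4, chr14:118706170-118706469, minus strand: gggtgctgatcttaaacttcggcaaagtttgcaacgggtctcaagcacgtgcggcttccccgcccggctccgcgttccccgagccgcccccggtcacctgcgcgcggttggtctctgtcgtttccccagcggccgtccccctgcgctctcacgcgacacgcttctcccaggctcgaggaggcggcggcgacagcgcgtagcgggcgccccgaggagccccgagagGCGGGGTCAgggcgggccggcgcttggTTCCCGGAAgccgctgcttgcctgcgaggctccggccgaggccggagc
The Slc10a1 window held a STAT match that began 53 bases before the start. The Slco1b2 window held a STAT match at 206 and an inverted repeat at 87 bases before the start. The Abcb11 window held an inverted repeat at 62 bases before the start, the Slco1a1 window no match, and the Abcc4 window an antioxidant response core at 25 bases before the start and a STAT match from base 3 after it. The other Slc10a1 window held no match, and the other Abcc4 window held an antioxidant response core at 23 bases before its start. No match overlapped another. Of the members not shown, Slc51b had a STAT match, Abcc2 an antioxidant response core, and Slco1a4 and Abcb4 none. Over 32851 promoter windows of the same length, 8.30% held the STAT site, 1.12% the inverted repeat and 12.4% the antioxidant response core. A match is a description of letters and was not tested as a site.

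Other transporters of the liver were listed by role, with the caveat that some genes stand on 2 lists. Slc27a5, a bile acid conjugating ligase, is both among the other uptake carriers and among the synthesis genes. Slc10a2 is both an uptake carrier and a small intestine marker, and Cyp7b1 both a synthesis gene and a male-biased gene. The counts below are read beside the shares of all genes called, given above, and the medians beside those of all genes, 0.01 for SAR against model and 0.03 for model against normal. Of 13 tested other uptake carriers 5 were higher and 1 lower in SAR than in model livers, and 1 was higher and 7 lower in model than in normal livers. Their median log2 fold changes were 0.83 and -1.11. Slco2a1, a prostaglandin carrier, had 421, 495 and 456 normalised reads in SAR, 181, 243 and 269 in model and 847, 750 and 816 in normal livers, without overlap between any groups. Log2 fold changes were 1.02 between SAR and model, -1.81 between model and normal, and -0.81 between SAR and normal livers (limma adjusted p = 0.00535, 0.00101 and 0.0269). Slc22a30, an anion carrier of the SLC22 family, had 1856, 1381 and 1214 in SAR, 326, 346 and 347 in model and 773, 787 and 321 in normal livers. It differed by 2.12 between SAR and model livers (limma adjusted p = 3.22e-04), and by -0.77 between model and normal livers (limma adjusted p = 0.0968). Without normal library c, the low one of its group, the second value was -1.20 (limma adjusted p = 0.00130), and SAR livers exceeded normal livers by 0.90 (limma adjusted p = 0.0197). Slco3a1, another organic anion carrier, went the other way from the hepatocyte uptake genes, at -1.34 for SAR against model and 1.79 for model against normal (limma adjusted p = 0.0105 and 0.0132).

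Of 10 tested other canalicular and apical transporters 5 were higher and 1 lower in SAR than in model livers, and 2 were higher and 3 lower in model than in normal livers, with medians of 0.88 and -0.60. Abcg2, the pump BCRP, had 1051, 828 and 1105 normalised reads in SAR, 423, 421 and 616 in model and 1182, 1255 and 698 in normal livers. Its log2 fold changes were 1.06 for SAR against model and -1.08 for model against normal (limma adjusted p = 0.00582 and 0.0160). Abcg5 and Abcg8, which form the sterol exporter of bile, were not called. Abcg5 had 848, 1325 and 1021 in SAR, 263, 304 and 1216 in model and 730, 688.5 and 869 in normal livers. Abcg8 had 687, 1105 and 1150 in SAR, 197, 192 and 942 in model and 1103, 906 and 966 in normal livers. In both genes model library c lay far above model libraries a and b. The limma adjusted p was 0.0986 and 0.0589 for SAR against model, and 0.299 and 0.0569 for model against normal. Without model library c both genes were called, Abcg5 at 1.90 and -1.43 and Abcg8 at 2.31 and -2.35 (limma adjusted p between 7.87e-05 and 0.00114). Atp8b1, the flippase that protects the canalicular membrane, had log2 fold changes of 0.08 and -0.08 (limma adjusted p = 0.803 and 0.782). Abcb1a, a P-glycoprotein gene, had 21.5, 52.0 and 52.6 in SAR, 96.5, 105 and 106 in model and 29.8, 24.8 and 17.6 in normal livers. It was -1.35 for SAR against model and 2.08 for model against normal (limma adjusted p = 0.0222 and 0.00237), and 17.6% of its 50-base stretches were shared, mostly with Abcb1b, so that the split of reads between these genes is uncertain.

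Of 3 tested other basolateral exporters none was higher and 2 were lower in SAR than in model livers, and 2 were higher and 1 lower in model than in normal livers, with medians of -1.81 and 2.35. Abcc1, which encodes MRP1, had 25.1, 38.7 and 47.4 normalised reads in SAR, 151, 119 and 127 in model and 33.6, 19.4 and 24.3 in normal livers. Its log2 fold changes were -1.83 and 2.35 (limma adjusted p = 0.00303 and 0.00173). Abcc5, which encodes MRP5, had 166, 129 and 121 in SAR, 714, 532 and 311 in model and 78.7, 78.8 and 51.8 in normal livers, with log2 fold changes of -1.81 and 2.82 (limma adjusted p = 0.00345 and 0.00158). Abcc1, Abcc4 and Abcc5 thus had their highest levels in the model livers, while Abcc3 had its lowest there. Abcc1 and Abcc5 are also expressed by many other cell types than hepatocytes, and the macrophage and cholangiocyte marker sums given above moved with them, in a part that was not tested. Abca1, the cholesterol exporter, had a log2 fold change of -0.99 in SAR and -1.55 in model livers, each against normal livers (limma adjusted p = 0.0398 and 0.00317).

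Among 11 tested genes that anchor or traffic transporters, 1 was higher and 3 lower in SAR than in model livers, and 2 were higher and 1 lower in model than in normal livers, with medians of 0.17 and 0.11. Radixin, encoded by Rdx, links canalicular transporters to actin in hepatocytes, and its log2 fold changes were 0.66 for SAR against model and -0.80 for model against normal (limma adjusted p = 0.0313 and 0.0101). The related ezrin gene Ezr and moesin gene Msn went the other way, at -1.74 and -1.55 for SAR against model and at 1.63 and 1.68 for model against normal (limma adjusted p between 0.00133 and 0.00794). Pdzk1, a scaffold of organic anion carriers, had 134, 163 and 203 normalised reads in SAR, 45.4, 84.7 and 142 in model and 257, 207 and 105 in normal livers and was not called (limma adjusted p = 0.0702 and 0.0943). It was called without model library c, at 1.41 and -1.51 (limma adjusted p = 0.00500 and 0.0312).

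Of 24 tested regulators of bile acid transport 14 were higher and 1 lower in SAR than in model livers, and 2 were higher and 11 lower in model than in normal livers, with medians of 0.90 and -0.68. Nr1h4, which encodes FXR, had 1644, 1763 and 2179 normalised reads in SAR, 684, 703 and 1279 in model and 1429, 1500 and 1980 in normal livers. Its log2 fold changes were 1.14 for SAR against model and -0.93 for model against normal (limma adjusted p = 0.0115 and 0.0284). Without normal library c the second was not called (-0.79, limma adjusted p = 0.0614), and without both c libraries it was (-1.08, limma adjusted p = 1.46e-05). Nr0b2, which encodes the repressor SHP, an FXR target, had 1384, 1516 and 1337 in SAR, 378, 653 and 625 in model and 575, 240 and 414 in normal livers. It was higher in SAR than in model livers by 1.41 and higher than in normal livers by 1.87 (limma adjusted p = 0.00298 and 0.0258), the only 1 of the 24 regulators called between SAR and normal livers. Between model and normal livers it was not called (0.48, limma adjusted p = 0.296).

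Hnf4a encodes a hepatocyte factor that is known to act on uptake carrier genes. It had 10498, 12139 and 10114 normalised reads in SAR, 4131, 5162 and 5008 in model and 12692, 11712 and 12035 in normal livers. Its log2 fold changes were 1.22 and -1.36 (limma adjusted p = 0.00599 and 0.00470). Ghr, the growth hormone receptor, whose signal sustains male-biased liver genes, had 6333, 7073 and 5805 in SAR, 1230, 1363 and 2282 in model and 5662, 4975 and 3328 in normal livers. It was 2.05 for SAR against model and -1.54 for model against normal (limma adjusted p = 0.00128 and 0.00762).

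Nr1i3, which encodes the xenobiotic receptor CAR, had 295, 431 and 521 normalised reads in SAR, 54.7, 37.4 and 363 in model and 363, 413 and 426 in normal livers. Model library c lay just under the lowest normal library, far from the other 2 model libraries, and the log2 fold change was 2.16 for SAR against model (limma adjusted p = 0.0470) and -2.13 for model against normal (limma adjusted p = 0.0538). Without model library c these were 3.15 and -3.12 (limma adjusted p = 4.80e-05 and 4.75e-04). Nr1i2, which encodes the related receptor PXR, was not called (0.64 and -0.16, limma adjusted p = 0.0834 and 0.672), and without model library c it was called for SAR against model (0.94, limma adjusted p = 0.00116). Neither was Nfe2l2, which encodes NRF2, a factor known to raise Abcc3 and Abcc4 (-0.18 and 0.36, limma adjusted p = 0.440 and 0.192). Of 12 tested NRF2 targets, among them the cystine carrier gene Slc7a11, 2 were higher and 7 lower in SAR than in model livers, and 8 were higher and 1 lower in model than in normal livers, with medians of -1.06 and 1.34. Gstm3, a glutathione transferase, was -1.58 and 4.21 (limma adjusted p = 0.0141 and 1.20e-04), and Hmox1, heme oxygenase, was -1.81 and 1.54 (limma adjusted p = 0.00176 and 0.00381). Of the CAR and PXR targets 1 of 8 tested was higher and 1 lower in SAR than in model livers, and 2 of 9 were higher and 2 lower in model than in normal livers, with medians of 0.24 and 0.70.

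**Figure D4:**
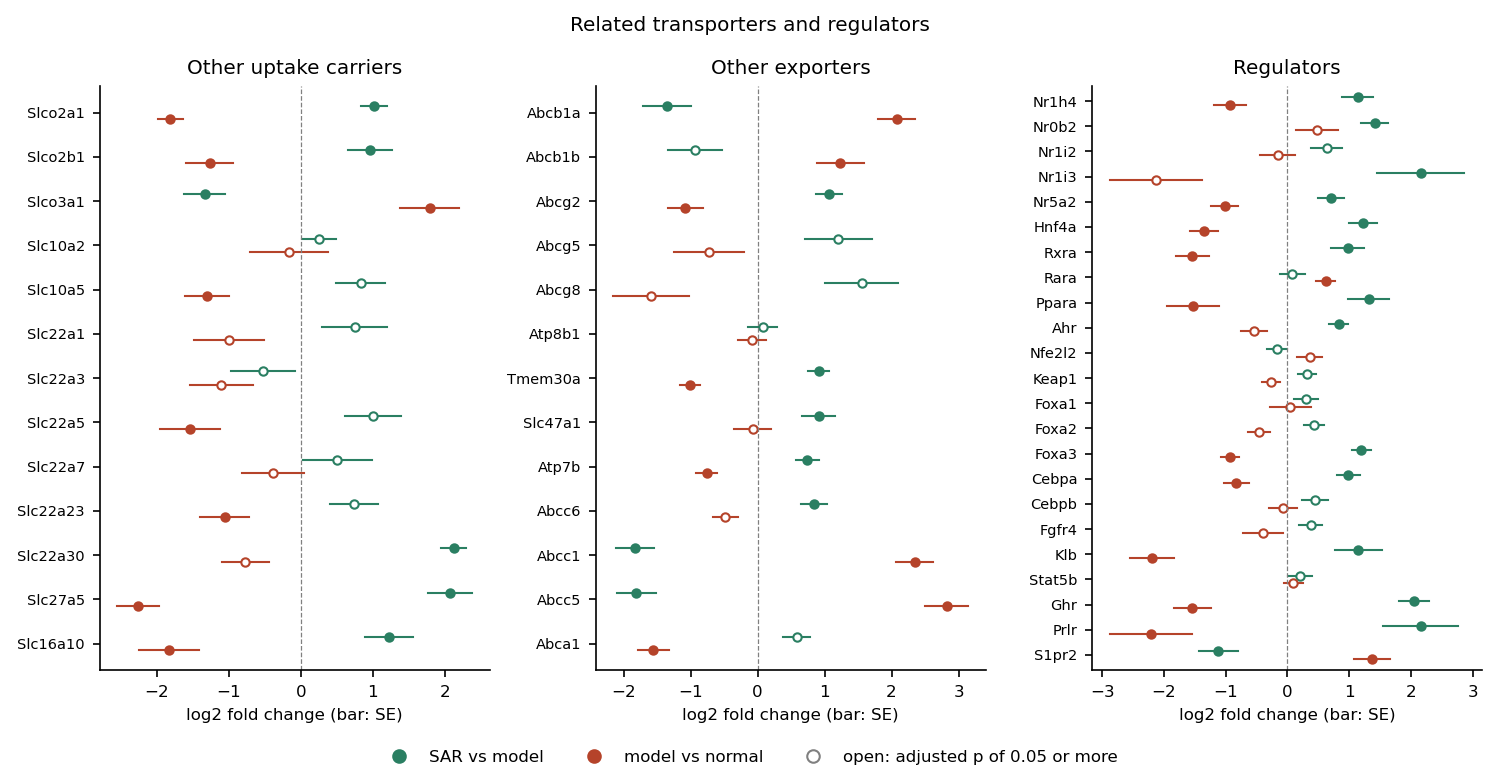
Log2 fold changes with standard errors of other uptake carriers, other exporters and 23 of the regulators, with SAR against model in green above model against normal in red for each gene. Filled points passed a limma adjusted p of 0.05, and Abcc1, Abcc5, Abcb1a, Slco3a1 and S1pr2 were lower in SAR than in model livers and higher in model than in normal livers.

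Of 13 tested genes of bile acid synthesis and conjugation, which make what the transporters carry, 11 were higher and none lower in SAR than in model livers, and none was higher and 9 were lower in model than in normal livers. Their medians were 1.502 and -1.42. Cyp8b1, the 12-alpha hydroxylase of cholic acid synthesis, had 6319, 6985 and 7910 normalised reads in SAR, 516, 926 and 861 in model and 13216, 14057 and 4171 in normal livers. Its log2 fold changes were 3.26 and -3.63 (limma adjusted p = 1.83e-04 and 0.00228), and without normal library c it was also called lower in SAR than in normal livers (-0.95, limma adjusted p = 0.0146). Cyp7a1, the rate-limiting enzyme, had 125, 352 and 781 in SAR, 60.5, 80.1 and 243 in model and 626, 521 and 473 in normal livers. It was 1.63 for SAR against model (limma adjusted p = 0.0940) and -2.33 for model against normal (limma adjusted p = 0.00844). Without model library c the first was 2.23 and called (limma adjusted p = 0.0114).

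The counts of these lists were mostly larger without the c libraries, as were the shares of all genes called. Without model library c, 20.4% of all genes were higher and 21.0% lower in SAR than in model livers. Of the other uptake carriers 9 were then higher and 1 lower, of the other canalicular and apical transporters 7 and 1, of the other basolateral exporters 1 and 2, and of the anchoring genes 3 and 3. The regulators then had 16 higher and 1 lower, the NRF2 targets 2 and 7, the CAR and PXR targets 3 and 1, the synthesis genes 12 and none, the male-biased genes 15 and none, and the cholangiocyte markers none and 14. Without both c libraries, 29.9% of all genes were higher and 28.1% lower in model than in normal livers. Other uptake carriers then had 2 higher and 11 lower, other canalicular and apical transporters 2 and 7, other basolateral exporters 2 and 1, and anchoring genes 3 and 3. Regulators had 2 higher and 14 lower, NRF2 targets 8 and 2, CAR and PXR targets 4 and 3, synthesis genes none and 11, male-biased genes none and 16, and cholangiocyte markers 14 and 1.

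The genes whose pattern over the 9 libraries was nearest to that of 2 members were also sought among 9840 genes, by the root mean square difference of log2(value + 1) after centring each gene on its mean. Nearest to Slco1a1, the tested member with the largest fall in model livers, were Mup9, Mup13 and Mup16, at differences of 0.71, 0.73 and 0.74. Mup9 had 141, 253 and 113 normalised reads in SAR, 0, 1.53 and 2.39 in model and 347, 276 and 3.31 in normal livers. Like Slco1a1, the Mup genes were low in normal library c, and reads of these near-identical paralogs may be split among them uncertainly. Nearest to Abcc4, the tested member with the largest rise, were Pvr, Dnmt3a and Ddb2, at 0.12, 0.18 and 0.20. Pvr had 197, 132 and 150 in SAR, 325, 392 and 379 in model and 155, 115 and 120 in normal livers.

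**Figure D5:**
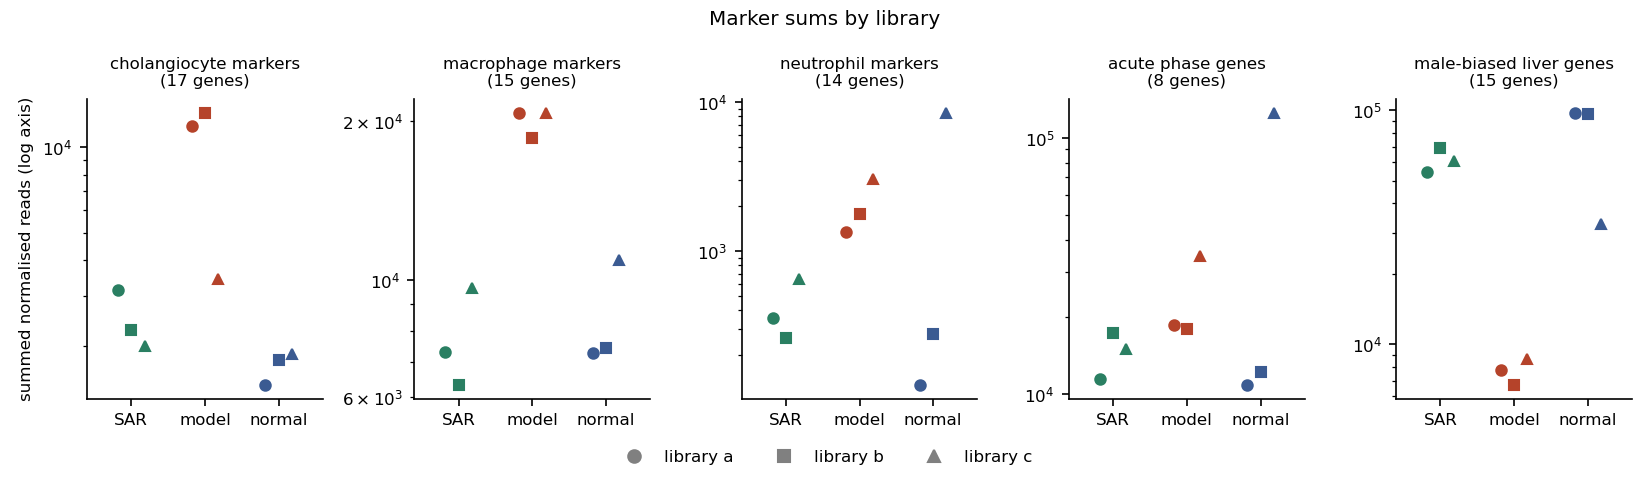
Summed normalised reads of marker lists in each library on log axes with their own ranges, with SAR, model and normal from left to right. Cholangiocyte sums were highest in model libraries a and b, and normal library c (triangle) had the highest neutrophil and acute phase sums and the lowest male-biased sum of its group.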

How the data were processed

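Liver RNA of 9 mouse samples was measured. Per the labels' protocols, Trizol was used for extraction and a NEBNext Ultra kit for libraries. Per the submitters' processing notes the build was mm9. The sources used here name no aligner, counter, annotation or strand setting, so reads of overlapping and antisense genes cannot be told apart. The authors deposited 2 tables, whose signal values are, per the file headers, group means of read counts divided by DESeq size factors, with a fold ratio, its log2 and p-values. Of 16521 gene IDs 16490 matched a symbol. The 10 genes, the other lists and the tests were chosen with earlier results of these data known.

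A deposited mean with 15 digits is a sum of 3 whole read numbers, each times a constant of its library, and was solved for them. Of 14703 normal and 14659 SAR genes tried all had 1 solution, and so had 16132 model genes solved from both tables together. More abundant genes were narrowed with the deposited folds, where 408 of 452 normal and 373 of 403 SAR genes were solved. All 9 libraries were recovered for 16426 genes. None of 2000 slightly moved means was solved, against 2000 of 2000 unmoved ones, and on simulated data 1921 of 1921 genes were solved rightly. Both checks used the normal group, below the range where narrowing was needed. They did not cover SAR or model means, or Slc10a1, Slco1b2, Abcb4, Abcc2 and Abcc3 in normal livers. For genes already solved, the narrowed interval held the known reads in 1500 of 1500 normal and 1500 of 1500 SAR genes. For the 10 genes, at most 0.0666 chance solutions were expected per group.

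Values within a table used the authors' size factors. SAR against normal, and levels over 9 libraries, used medians of ratios of the recovered reads. The factors over 9 libraries differed from the authors' factors by at most 1.14%. Those of SAR against normal were compared only with the factors over 9 libraries and differed by at most 0.705%. Each comparison was fitted on its 2 groups with limma 3.58.1 in R 4.3.3 (trended variance, two-sided) on log2(value + 1), for genes whose mean value reached 10. P-values were adjusted by Benjamini-Hochberg over every gene tested, and a gene was called under 0.05. Fold changes on this scale understate those of low genes. On simulated data for SAR against model, 46 of 50 genes raised 4-fold and 4 of 50 raised 2-fold were called, so changes near 2-fold were seldom detected there. Each simulated fold was given to at most 50 of 12376 genes, whereas 3658 of 12470 were called in the data. An adjusted p depends on that share, so these rates do not carry over to the calls above. Exact permutation of 3 against 3 libraries cannot give a p under 0.1 and was not run. All 10 genes were named, and of other lists called genes, and 11 regulators and transporters whatever their p. The result of 1 further regulator is not reported here. Alternatives were other pseudocounts, filters and scalings, 3 groups in 1 fit, voom weights, the authors' test and leaving out libraries.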

Additional observations from a re-analysis of the deposited data

How the results depend on the processing

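Of 377 values of single transporters under alternatives 322 kept their direction and side of the threshold, 39 fell below it, 5 passed it and 11 changed sign. With no filter on low values and in the authors' deposited test the number called higher in model than in normal livers was 2, not 1, since Slc51b entered. With no filter the number called lower in SAR than in model livers was 2, for the same reason. Leaving out 1 library gave 1 to 6 members lower in model than in normal livers, 2 to 8 higher and 0 to 1 lower in SAR than in model livers. All signs that changed belonged to values that were not called. Abcb11 in model against normal was -0.0065 with TMM scaling, -0.025 in the authors' table and -0.11 without both c libraries, and ran from -0.23 without normal library c to 0.19 without normal library a. In SAR against normal, leaving out 1 library gave -0.33 to 0.027 for Slc10a1, -0.66 to 1.98 for Slco1a1, -0.62 to 0.13 for Slco1a4 and -0.086 to 0.33 for Abcc4. The changed signs came without SAR library a for Slc10a1 and Abcc4, and without normal library c for Slco1a1, Slco1a4 and Abcc4. Slco1a1 in model against normal was not called with voom weights (limma adjusted p = 0.0730). The cause was not tested. Leaving out both c libraries, the lists without c libraries and the voom weights were chosen after seeing the data.

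Over all genes, leaving out 1 library gave 1249 to 2847 higher and 1185 to 2941 lower in model than in normal livers, against 2507 and 2394 with all, 630 to 2543 higher and 912 to 2615 lower in SAR than in model livers, against 1646 and 2012, and 4 to 540 higher and 1 to 544 lower in SAR than in normal livers, against 199 and 211. Without both c libraries 3782 were higher and 3556 lower in model than in normal livers. Read-count tests with edgeR or DESeq2 were planned and were not run: no deposited column holds counts, and the solved reads were used in limma only, with and without voom weights. No paired analysis was possible because the deposited columns are group means and the recovered libraries carry no replicate number. Depth limits Slc51b, Slc51a and Abcc4 most, and abundant hepatocyte genes could not be split between libraries.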
